A study of Mus musculus with 4 samples.

Results

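ESR1, the estrogen receptor alpha, was mapped around 8 genes whose products the liver makes or uses to handle plasma proteins and sterols: Alb, Apoa1, Apoa4, Apoa5, Apob, Abcg5, Abcg8 and Nr0b2. The genes fall into 5 loci. Their gene spans were given in the mm9 build, rounded to about 10 kb, and were not checked against an annotation. A summit inside a span therefore need not lie inside a gene. A peak of either deposited list was taken as a member when its summit lay within 100 kb of the gene span. By this rule 51 of the 31768 peaks were members, 34 of the 6932 in the liver list and 17 of the 24836 in the uterus list. The windows covered 1.21 Mb, or 0.0474% of the chromosome length that the lists span.

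Chromatin came from frozen liver and frozen uterus of female C57BL/6 mice aged 8 weeks, and the labels name no treatment or allele. The 4 samples of the series were, for either tissue, 1 ESR1 library and 1 input control. With a single ESR1 library per tissue there was no replicate error, and no test between the tissues was made. The sources used here do not say how many animals went into a library, and peak lists hold no RNA level by which the tissue labels could be checked. The ESR1 libraries held 20016495 unique tags in liver and 22298008 in uterus.

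ESR1 belongs to the nuclear receptors and binds DNA when activated by estrogens, mostly at palindromic repeats of the sequence GGTCA. The hepatocyte secretes most plasma proteins and builds lipoproteins, the particles that carry lipid in blood, and estrogens are known to alter plasma lipids. Albumin, from Alb, is the main plasma protein. Apoa1, Apoa4 and Apoa5 encode apolipoproteins of high-density and triglyceride-rich particles, and Apob encodes the structural protein of low-density and very-low-density particles. Abcg5 and Abcg8 encode the 2 subunits of a transporter that exports sterols into bile. Nr0b2 encodes SHP, a nuclear receptor without a DNA-binding domain that represses bile acid synthesis.

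The promoters of 4 of the genes are shown because they lie at the loci described below and differ in their content of the receptor's recognition sequence. They are the 250 bases before the annotated start, 5′ to 3′, from RefSeq on the GRCm38.p6 build, and capitals mark each GGTCA or its reverse complement TGACC. The build differs from that of the peaks, so which peak covers which promoter was not determined.
Alb (chr5:90460620-90460869, plus strand): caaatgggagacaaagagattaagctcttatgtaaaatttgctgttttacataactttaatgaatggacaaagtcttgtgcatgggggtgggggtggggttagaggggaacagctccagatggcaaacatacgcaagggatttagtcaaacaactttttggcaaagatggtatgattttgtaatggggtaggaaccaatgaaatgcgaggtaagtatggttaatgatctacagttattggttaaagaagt
Apoa5 (chr9:46268358-46268607, plus strand): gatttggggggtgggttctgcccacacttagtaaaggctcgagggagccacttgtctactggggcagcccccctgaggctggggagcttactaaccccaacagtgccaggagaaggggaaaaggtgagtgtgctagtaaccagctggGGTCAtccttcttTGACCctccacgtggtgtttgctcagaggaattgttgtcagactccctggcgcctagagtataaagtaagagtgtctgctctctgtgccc
Abcg5 (chr17:84683012-84683261, minus strand): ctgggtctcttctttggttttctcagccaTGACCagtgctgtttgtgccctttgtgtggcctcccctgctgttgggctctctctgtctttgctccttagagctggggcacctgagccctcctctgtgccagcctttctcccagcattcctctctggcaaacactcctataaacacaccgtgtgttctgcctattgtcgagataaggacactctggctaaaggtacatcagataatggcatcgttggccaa
Nr0b2 (chr4:133553126-133553375, plus strand): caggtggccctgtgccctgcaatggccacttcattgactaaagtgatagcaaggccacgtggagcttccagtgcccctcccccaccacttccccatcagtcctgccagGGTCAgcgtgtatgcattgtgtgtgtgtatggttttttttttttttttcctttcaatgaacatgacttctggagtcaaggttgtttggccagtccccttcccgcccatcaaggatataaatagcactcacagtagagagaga

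All 8 genes matched the RefSeq table, with 10 promoter entries. The textbook estrogen response element, GGTCA and TGACC with 3 bases between them, was in none of the 10, and it was in 0.0639% of the 32851 promoters in the table. A single GGTCA on either strand was in 4 of the 10 entries, against 35.2% of all promoters. These were both entries of Apoa5, which overlap, and those of Abcg5 and Nr0b2. The first Apoa5 entry held the unit at -103 and its reverse complement at -90 from the start, 8 bases apart. That wider arrangement, looked for after it had been seen, was in 0.0639% of all promoters. The unit lay at -221 in Abcg5 and at -142 in Nr0b2. The Abcg5 and first Abcg8 windows share 109 bases on opposite strands, and the Abcg8 entries held no GGTCA. The Alb, Apoa1, Apoa4 and Apob windows held none either, which says only that these letters are not in these windows.

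Liver peaks were far denser at these loci than over the liver list, and uterus peaks were little denser than over theirs. The liver list had 28.1 peaks per Mb in the windows, 10.4 times its density over the whole list, which was 2.71 per Mb. The uterus list had 14.05 per Mb, 1.45 times its own 9.72 per Mb. The loci were named for liver genes with earlier results of these data known, so these densities describe the loci and are no test. In the liver list 21 of 34 peaks had their summit inside a gene span (61.8%, 95% Wilson interval 45.04 to 76.1), although the spans made up 17.4% of the window length. In the uterus list 2 of 17 did (11.8%, 3.29 to 34.3). These intervals cover counting error only and treat the peaks of a locus as independent. Of the 21 liver peaks inside a span, 11 were in the apolipoprotein cluster and 4 at Nr0b2. Alb and Abcg5-Abcg8 had 3 each and Apob had 0.

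**Figure D1:**
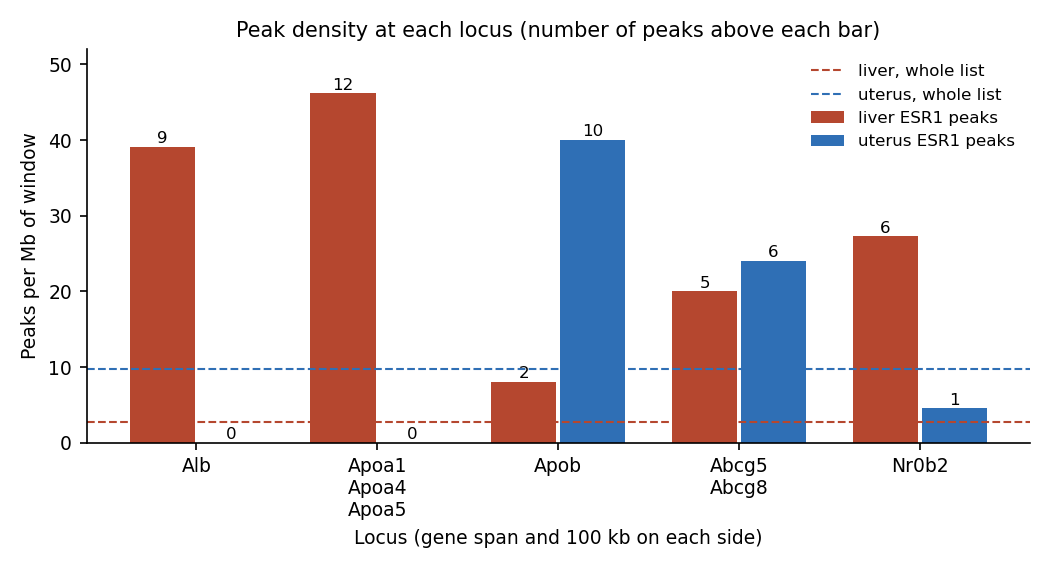
Peaks per Mb (vertical axis) in the window of each locus, the gene span and 100 kb on each side, for the liver and uterus ESR1 lists; the number above a bar is its count of peaks, and dashed lines give the density of each whole list. The liver bars are highest at Apoa1-Apoa4-Apoa5 (12 peaks) and Alb (9 peaks), where the uterus list has 0, and the highest uterus bar is at Apob (10 peaks).

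The tissues shared a single site. Counting any overlap of 1 bp or more, 1 liver peak of 34 met a uterus peak (2.94%, Wilson interval 0.521 to 14.9), against 23.7% in the whole liver list. The 9 liver peaks at Alb and the 12 in the apolipoprotein cluster lay in windows with 0 uterus peaks. Peaks of a locus are thus not independent, which the interval does not cover, and the contrast with the list is no test. One uterus peak of 17 overlapped a liver peak (5.88%, 1.05 to 27.0), against 6.58% in the whole uterus list, so the uterus share was near its background. The remaining 33 liver and 16 uterus peaks are called single-tissue here, which means only that the other list has no peak there. A site under the p cutoff of 1e-10 in the other tissue would count as single-tissue too. None of the 33 single-tissue liver peaks had a uterus summit within 10 kb, against 27.8% of the single-tissue peaks of the whole liver list. At Alb and the apolipoprotein cluster this follows from the lack of uterus peaks in the windows, so it is not a separate result for each peak. Of the 16 single-tissue uterus peaks 1 had a liver summit that near, against 7.97% in its list.

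**Figure D2:**
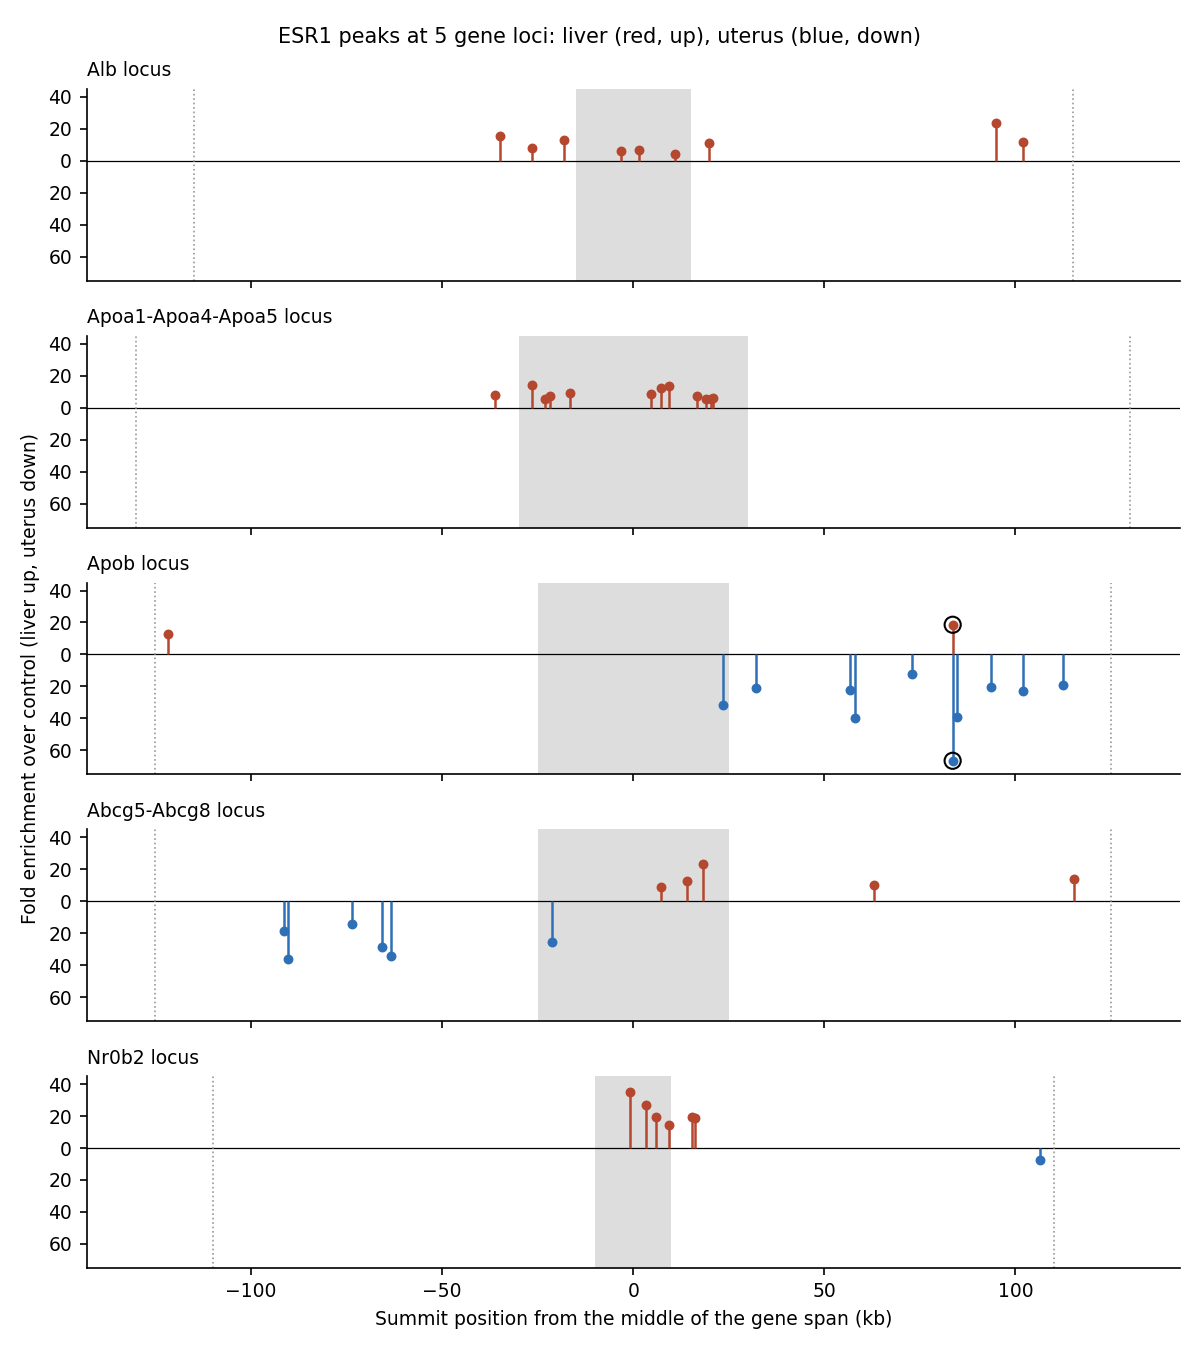
Position of each ESR1 summit from the middle of the gene span in kb (horizontal axis) and the authors' fold enrichment over control (vertical axis, liver upwards and uterus downwards), with 1 panel per locus. Grey blocks are gene spans, dotted lines the limits of 100 kb and circles the overlapping pair, which is at Apob; liver peaks sit in the grey blocks of Alb, Apoa1-Apoa4-Apoa5, Abcg5-Abcg8 and Nr0b2, and the uterus peaks lie beyond the Apob block and before that of Abcg5-Abcg8, with 1 inside each of these 2 and 1 far from Nr0b2.

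The positions that follow are those of the mm9 build in the authors' lists. Fold enrichment is the authors' ratio of signal at the peak to the local background that the peak caller MACS set from the control. The ratio was taken as listed and was not recomputed from the tags of the peak. The MACS score is 10 times the −log10 of its p-value. Both depend on a library's own depth and control, so each is read within its list: the liver list has medians of 11.2-fold, 58 tags and a score of 172, and the uterus list 14.7-fold, 55 tags and a score of 216.

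Nr0b2 held the strongest liver peaks of the group. The peak on chromosome 4 at 133107911 to 133109682 had 377 tags, a fold enrichment of 35.0 and a score of 2268, which ranked 26th of the 6932 liver peaks by score and 23rd by tags. It lay inside the span of this bile acid repressor (133100000 to 133120000). The next, at 133112989 to 133113950, had 195 tags and was 26.8-fold enriched, rank 111 by score. A smaller peak at 133115675 to 133116142 had 60 tags at 19.1-fold, and one at 133118873 to 133119645 had 93 tags at 14.4-fold. A further pair lay 5.45 and 6.24 kb beyond the span, with 83 and 40 tags at 19.3- and 18.8-fold. All 6 liver peaks of the locus passed a score of 200, which 40.8% of the liver list did, and a fold of 10, which 62.7% did. They fell within 17.2 kb, with a median of 3.35 kb between neighbouring summits. Of all windows of this length laid end to end over the chromosomes, 1.67% held 6 or more liver peaks. The uterus list had 1 peak in the window, at 133215827 to 133216795, 96.5 kb from the span. It had 75 tags at 7.54-fold, below the uterus median, and lay 90.3 kb from the nearest liver summit. By gene order in the RefSeq table, Nudc precedes Nr0b2 and Gpatch3 and Gpn2 follow it.

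The apolipoprotein cluster on chromosome 9 had the most liver peaks and none in uterus. RefSeq places Apoc3, which encodes an inhibitor of triglyceride clearance, between Apoa1 and Apoa4, with Sik3 before the cluster and Zpr1 after it. Of the 12 liver peaks 11 lay inside the span of 46030000 to 46090000, spread over 47.4 kb, and the other was 6.087 kb before it. Only 0.0917% of windows of this length, 9 of 9819, held 12 or more liver peaks, and 35.6% held no uterus peak. The nearest uterus summits were 133.3 to 173.97 kb from the liver summits. The peak with the most tags was at 46037553 to 46039435, with 155 tags at 7.14-fold, and it was 1883 bp wide. The second by tags, at 46064046 to 46065271, had 133 tags at 8.72-fold. The most enriched was at 46033223 to 46033830, with 43 tags at 13.9-fold. The peak at 46069073 to 46069815 followed it with 101 tags at 13.6-fold, and at 356 it had the highest score of the cluster. One at 46066989 to 46067707 had 74 tags at 12.1-fold. These last 3 were the only peaks of the cluster at or above 10-fold. The other 6 peaks inside the span began at 46036453 (67 tags, 5.36-fold), 46043008 (98 tags, 9-fold), 46076207 (80 tags, 7.14-fold), 46077926 (82 tags, 5.49-fold), 46079471 (76 tags, 5.22-fold) and 46080678 (52 tags, 6.14-fold), the first being 912 bp and the last 735 bp wide. The last 4 form a run of summits from 46076607 to 46080939. The cluster thus combined many tags per peak with low enrichment: its median peak had 78 tags, above the list median, at 7.47-fold, below it. Its peaks were also wide, with a median of 897 bp against 631 bp in the list.

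Alb had 9 liver peaks and no uterus peak. Windows of this length with 9 or more liver peaks made up 0.432% of all, and 38.3% had no uterus peak. Windows with at least 5 liver peaks, a count chosen after the loci had been seen, made up 3.16%, and 4.27% of these 351 had no uterus peak. The most enriched peak lay at 90989677 to 90990340 on chromosome 5, 80.02 kb beyond the span, with 151 tags at 23.6-fold and a score of 806, rank 234. Its neighbour at 90996566 to 90997736 had 126 tags at 11.6-fold. In gene order Alb is followed by Afp and Afm, which encode the related plasma proteins alpha-fetoprotein and afamin. Which of these genes the far peaks lie in was not determined. Before the span there were peaks at 19.7, 11.6 and 3.175 kb, with 52, 45 and 83 tags at 15.4-, 8.16- and 13.3-fold, and 4.80 kb after it one with 56 tags at 11.2-fold. Inside the span of 90880000 to 90910000 the 3 peaks were weakly enriched. The one at 90905433 to 90907169 was 1737 bp wide and held 137 tags, rank 369 of the list, but at 4.21-fold it ranked 6930 of 6932 by fold enrichment. The others, at 90891381 to 90892615 and 90896283 to 90896673, had 108 tags at 6.18-fold and 36 tags at 7.08-fold.

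Peaks inside the gene spans of Alb and the apolipoprotein cluster ranged from 4.21- to 7.08-fold and from 5.22- to 13.9-fold. All 3 of Alb and 8 of 11 in the cluster were below the list median of 11.2-fold, whereas those inside Nr0b2 were 14.4- to 35.0-fold. Over all loci the 21 liver peaks inside spans had a median width of 912 bp and a median of 9-fold, and the 13 outside had 596 bp and 13.3-fold. This pooled contrast mixes loci, since 11 of the inside peaks were in the cluster and 3 at Alb. The median fold was lower inside than outside at Alb (6.18 against 12.5) and in the cluster (7.14 against 7.8 for its 1 outside peak). It was higher inside at Nr0b2 (22.95 against 19.03) and at Abcg5-Abcg8 (12.48 against 11.94). Tag density was taken over the whole peak width, so its quotient by fold enrichment depends on width as well as on background. How far this quotient follows the local background that MACS set was not tested. It had a median of 7.99 tags per kb over the liver list. The 3 peaks inside Alb stood at 13.0, 14.2 and 18.7, all above the 95th percentile of the list, 12.8, which 5.01% of liver peaks exceed. Inside the apolipoprotein span the median was 11.5 (5.08 to 13.7), and 1 peak passed that percentile. Inside Nr0b2 it was 7.14 (6.08 to 8.35) and inside Abcg5-Abcg8 6.40 (5.36 to 8.98). Outside the spans the median quotient was 9.27 at Alb, 9.83 at Abcg5-Abcg8, 6.64 at Nr0b2 and 6.17 at Apob. The 1 outside peak of the cluster had 11.7, so a high quotient was not confined to the spans. The quotient uses the same tags and folds it is set beside, and the part of the local control level in these peaks was not tested.

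**Figure D3:**
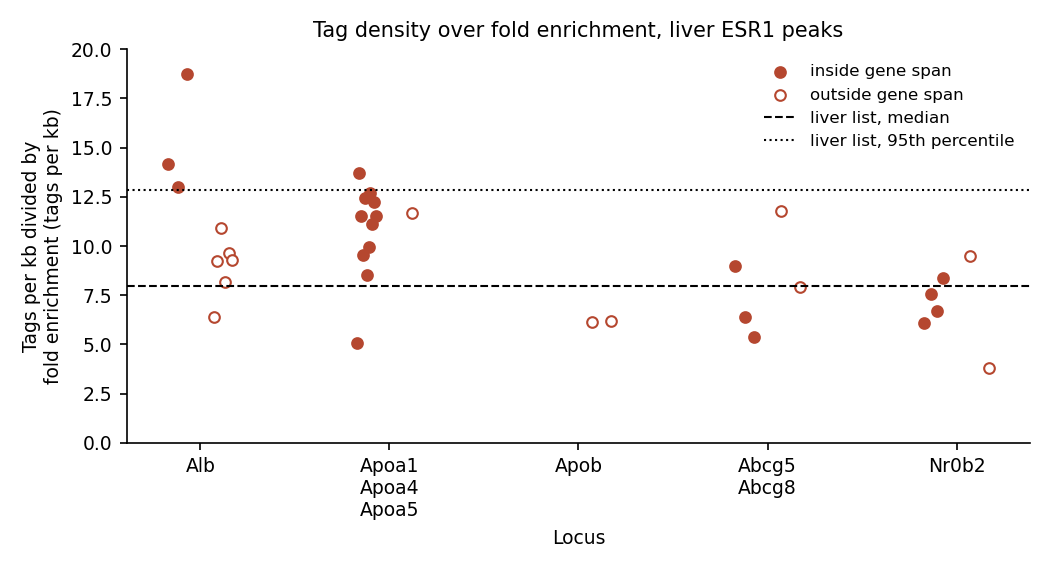
Tags per kb divided by fold enrichment (vertical axis, tags per kb) for every liver ESR1 peak of each locus, filled where the summit lies inside the gene span and open where it lies outside; lines give the median and the 95th percentile of the liver list. The 3 filled points of Alb lie above the upper line at 12.8, and those of Nr0b2 lie between 6.08 and 8.35.

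The sterol transporter pair Abcg5 and Abcg8 had peaks of both tissues, which did not interleave along the chromosome, though both tissues had peaks inside the span. All 6 uterus summits came before all 5 liver summits along chromosome 17, with 28.6 kb between the last of the uterus and the first of the liver. The liver peaks inside the span (85050000 to 85100000) were at 85082059 to 85083074 (84 tags, 9.21-fold), 85088666 to 85089153 (39 tags, 12.5-fold) and 85092941 to 85093665 (90 tags, 23.2-fold). The last had the highest fold enrichment and, at 449, the highest score of the locus in liver. A peak 37.9 kb beyond the span had 84 tags at 9.85-fold. The one with the most tags, 106 at 14.03-fold, was 90.2 kb beyond it, at 85189638 to 85190593. Lrpprc follows Abcg8 in gene order and Dync2li1 precedes Abcg5. In uterus 1 peak lay inside the span, at 85053466 to 85054004, with 61 tags at 25.5-fold. The other 5 were 38.5 to 66.3 kb before it. Of these the most enriched was at 84984199 to 84984900 (162 tags, 36.2-fold), and the one with the most tags was at 85010853 to 85011809 (188 tags, 34.4-fold). All 6 uterus peaks were at least 10-fold enriched, as were 79.8% of the uterus list. Of windows of this length 3.61% had 5 or more liver peaks and 13.9% had 6 or more uterus peaks.

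Apob was the locus of uterus peaks. It had 10 uterus peaks and 2 liver peaks, and 4.29% of windows of this length had 10 or more uterus peaks while 15.6% had 2 or more liver peaks. The only uterus peak inside the span (7980000 to 8030000) was close to its far end on chromosome 12, at 8027601 to 8028817, with 285 tags at 31.5-fold and a score of 1632. The other 9 followed over the next 87.3 kb, on the side where gene order puts Ldah, which encodes a lipid droplet protein, and no uterus peak lay before the span. The one with the most tags was at 8089229 to 8090504 (289 tags, 39.5-fold), and its score of 2102 ranked 710th of the 24836 uterus peaks. A score of 200 was passed by 9 of the 10, against 53.9% of the uterus list. No liver peak lay inside the Apob span. One was 96.7 kb before it, at 7883160 to 7883583, with 33 tags at 12.7-fold.

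The other liver peak at Apob was the shared site. It ran from 8088379 to 8088734, wholly within the uterus peak at 8088229 to 8088793, and the summits were 7 bp apart. In uterus this was the most enriched peak of all 17, with 66.6-fold enrichment, rank 691 of its list, and 152 tags. In liver it had 41 tags at 18.6-fold, rank 895. Scaled to 1000000 unique tags this came to 6.82 in uterus (exact Poisson interval 5.78 to 7.99) and 2.05 in liver (1.47 to 2.78), a ratio of 3.33 (exact interval 2.34 to 4.82) between these 2 libraries. The peaks were called separately and the uterus peak was the wider, at 565 against 356 bp. Per kb of peak the tags were 269 in uterus and 115 in liver, not scaled to depth. The uterus peak with the most tags lay 1.26 kb away and did not overlap the liver peak.

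**Figure D4:**
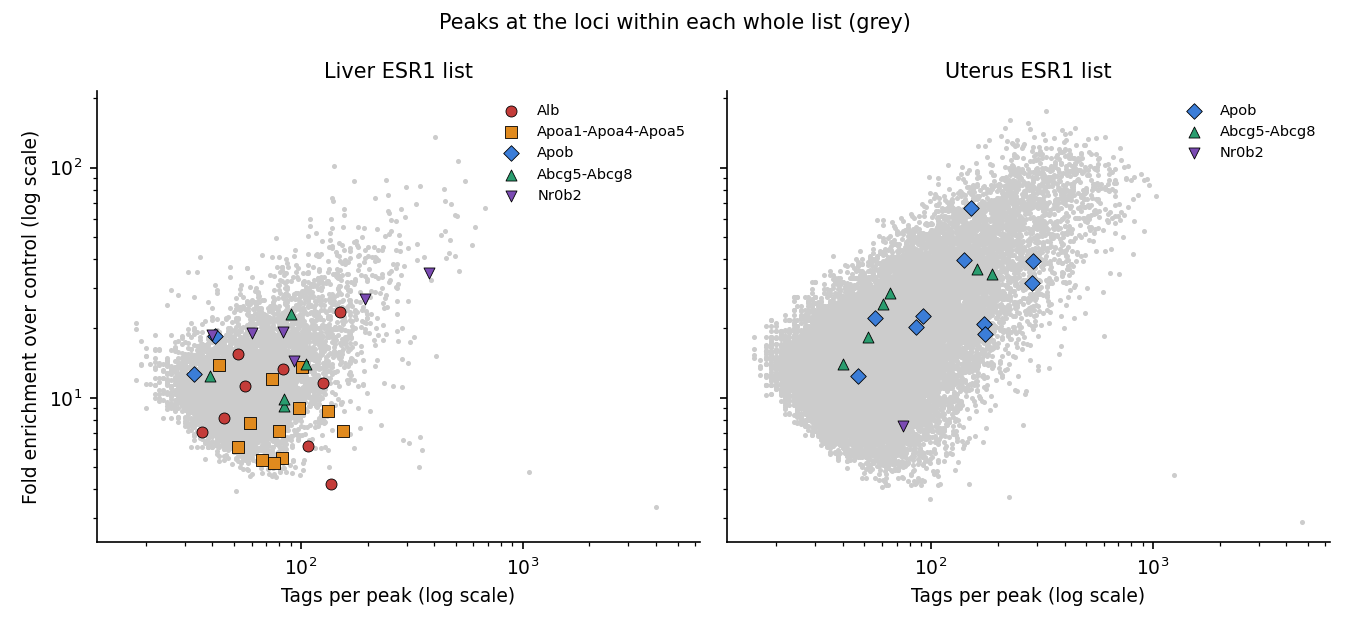
Fold enrichment over control against tags per peak, both on log scales, for the liver list (left) and the uterus list (right); grey points are all peaks of the list and coloured symbols are peaks at the 5 loci. The Nr0b2 peak with 377 tags stands at the upper right in liver, the Alb peak with 137 tags at 4.21-fold near the lower edge, and the Apob peaks of uterus spread from 12.4- to 66.6-fold.

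The liver members had more tags than the median liver peak but about its fold enrichment, with large differences between loci. Their medians were 82.5 tags, 11.8-fold and a score of 216, and 24, 19 and 20 of the 34 lay above the list medians. They were also wider, with a median of 730 bp against 631 bp in the list. Their tags per kb were near those of the list, with medians of 91.9 and 88.6 and 20 of 34 above. A fold enrichment of 10 was reached by 19 of 34 (55.9%), below the 62.7% of the liver list, and a score of 200 by 18 (52.9%), above its 40.8%. The locus medians of fold enrichment ran from 7.47 in the apolipoprotein cluster, through 11.2 at Alb, 12.5 at Abcg5-Abcg8 and 15.6 at Apob, to 19.2 at Nr0b2. The uterus members had medians of 92 tags, 22.7-fold and a score of 540, and 14 of 17 lay above the list median by each measure. The 3 that lay below the median fold were the single peak of Nr0b2, one of Abcg5-Abcg8 at 13.97-fold and one of Apob at 12.4-fold. Summed over called peaks, the liver tags were 1020 over 12.03 kb in the apolipoprotein cluster (84.8 per kb), 794 over 7.50 kb at Alb (106 per kb) and 848 over 4.99 kb at Nr0b2 (170 per kb). The uterus sum at Apob was 1496 over 8.31 kb (180 per kb).

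The count of peaks changed more with the limit of 100 kb in uterus than in liver, while densities at other limits were not computed. The outermost members were a liver peak at Apob, 96.7 kb from the span, and the uterus peak of Nr0b2 at 96.5 kb. The nearest peaks left out were from uterus, at 104 and 109 kb from Nr0b2 (15.2- and 10.4-fold) and at 112 kb from Alb (38.5-fold, 85 tags).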

How the data were processed

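ChIP-seq peak lists of 1 liver and 1 uterus ESR1 library were analysed. Per the submitters' processing notes the authors used MACS 1.3.7.1 and the mm9 build. Per the file headers peaks were called in each library against 1 control, with 50 bp tags and a p cutoff of 1e-10. The sources used here do not name an aligner. The deposited lists give each peak a raw count of tags, a fold enrichment (the ratio to local background), a score of 10 times the −log10 of the p-value, and a false discovery rate in percent, which was not used. The controls were not analysed on their own.

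Summits were placed at start plus offset minus 1, with coordinates taken as 1-based. Sharing meant an overlap of at least 1 bp. Shares have 95% Wilson intervals and tags exact Poisson intervals, which cover counting error only, since PCR copies are not independent molecules. The Wilson intervals also treat the peaks of a locus as independent. Background windows of each locus's length were laid end to end over the stretch of each chromosome that holds peaks. Described in full were overlapping pairs, peaks inside a span, and the highest by fold and by tags. The members and lists were chosen with earlier results of these data known. An mm9 genome and annotation were not used here, so peak sequences, exons and a planned list of further pathway genes were not analysed. The overlap rule was checked with uterus peaks matched to their own list, part of them moved beyond every chromosome so that they had no partner. Partial overlap between different lists was not part of that check. Assignment was checked with summits planted at the limits of each span and window and just beyond the window. The tools were scipy 1.17.1 and numpy 2.4.6 for intervals, pandas 2.3.3 for tables and matplotlib 3.10.9 for plots, under Python 3.11.15.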

Additional observations from a re-analysis of the deposited data

How the results depend on the processing

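As counts, the 34 liver peaks changed most with the cut on strength and the 17 uterus peaks most with distance. A longer window can hold more peaks of either list. Densities per Mb at other distances were not computed, so these counts do not show how either density depends on distance. At a MACS score of at least 200 there were 18 liver peaks and at a fold enrichment of at least 10 there were 19, with the apolipoprotein cluster falling from 12 to 4 and 3 and Nr0b2 keeping a count of 6 under both; uterus counts were 14 and 16. These cuts kept 40.8% and 62.7% of the whole liver list and 53.9% and 79.8% of the uterus list. Within 50 kb there were 29 liver and 9 uterus peaks and no overlap in either list (0 and 0). Within 200 kb there were 38 and 31, with 2 overlapping peaks in each list, and Alb and the apolipoprotein cluster had 1 and 3 uterus peaks. Allowing a gap of 1000 bp gave 2 uterus peaks with a liver partner. Without the Apob locus no liver peak (0) overlapped a uterus peak. Peak centres gave the same counts throughout. Summits within 200 bp and an overlap of 50% of the shorter peak left 1 shared peak in each list, and leaving out any of the other loci left 1 shared liver peak; the counts of 34 and 17 are sums over the loci and were not recomputed without each. At the shared site the ratio of uterus to liver tags was 3.32 when scaled to total tags and 3.71 in raw tags. No paired analysis was possible because each tissue has 1 library and no test was made.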
